A study of Mus musculus with 21 samples.

Results

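Natural killer (NK) cells lacking the transcription factors Ikaros (gene Ikzf1) and Aiolos (gene Ikzf3) were compared with NK cells lacking Ikaros alone, so that the comparison shows what the loss of Aiolos adds when Ikaros is already missing. It used 3 libraries of the double knockout (DKO; columns S5, S6 and S7) and 4 libraries of the Ikzf1 knockout (Ikzf1 KO; columns S12 to S15), which are 7 of the 21 samples described in the labels and 7 of the 15 libraries in the deposited table. Of the 11736 genes in the table, 9540 had an RPKM (reads per kilobase of gene, scaled to library size) of at least 1 in at least 3 of these 7 libraries, and these genes were tested. Conditional knockout mice, in which the genes are deleted in NK cells, supplied the cells. NK cells were sorted from the spleen and kept in culture with recombinant human interleukin 15 (IL-15), the cytokine that sustains NK cells, at 50 ng/ml. The Ikzf1 deletion and the culture were shared by both groups, and the Cre driver, strain, sex and age of the mice and the time in culture were not given in the sources used here. For the last comparison, the Ikzf3 knockout (Ikzf3 KO; 4 libraries, S1 to S4) and Cre only controls (4 libraries, S16 to S19), cultured alike, were set beside them. Column names give the genotype and not the culture, and columns were assigned to the cultured groups because these groups alone have matching sizes.

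Ikaros and Aiolos are zinc finger proteins of the Ikaros family, which includes Helios (gene Ikzf2) and Eos (gene Ikzf4). They bind DNA as dimers at sites with the core TGGGAA, recruit the NuRD chromatin remodelling complex, and can repress or activate genes during lymphocyte development. NK cells kill target cells by releasing perforin and granzymes from granules, and their maturation is marked by changes in surface receptors, integrins and transcription factors. AP-1, a dimer of Jun and Fos or of related proteins, is a transcription factor complex switched on by activating receptors.

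The libraries held 11.3 to 21.2 megareads, as recovered from the steps between the deposited values, so that depth limits only the weakly expressed genes. Labels call the samples biological replicates. The first principal component of the 7 libraries separated the genotypes and held 60.5% of the variance, and the second, with 22.7%, separated S5 (at 35.97) from S6 and S7 (at -18.45 and -16.17). Across genes, the correlation of log2 values was 0.951 between S5 and S6, 0.953 between S5 and S7 and 0.987 between S6 and S7, against 0.981 to 0.995 among the Ikzf1 KO libraries. No label or header gives a batch for S5. NK cell markers were present: 13 of the 14 markers were in the table, and the activating receptor gene Ncr1 was at 185, 235 and 184 RPKM in DKO and at 100.3, 118, 116 and 116 RPKM in Ikzf1 KO. By the test given below, 3 of the 13 were higher in DKO, Ncr1 among them, and 4 were lower (Gzma, Gzmb, Prf1 and Tyrobp). RPKM values below are in the order S5, S6 and S7 for DKO and S12, S13, S14 and S15 for Ikzf1 KO. Differences are log2 fold changes of DKO against Ikzf1 KO ± SE on the log2(RPKM + 0.5) scale, which understates the change of weakly expressed genes. Adjusted p-values are from limma with Benjamini-Hochberg adjustment over all genes tested, and a gene was called at an adjusted p below 0.05.

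The deleted genes were examined first. Aiolos messenger RNA was lower in DKO: Ikzf3 (mm10 chr11:98464902-98546031) was at 23.7, 19.96 and 20.9 RPKM, against 49.7, 46.3, 47.98 and 49.2 RPKM in Ikzf1 KO (log2 fold change -1.15 ± 0.09, adjusted p = 0.00033). Message from the locus therefore remained in every DKO library, and the values of whole genes do not show which exons it came from. Ikzf1 (mm10 chr11:11685003-11772926), deleted in both groups, was at 38.5, 25.3 and 27.2 RPKM in DKO and 19.03, 19.9, 18.3 and 19.3 RPKM in Ikzf1 KO, and at 57.7, 59.3, 61.1 and 69.4 RPKM in S16 to S19, the Cre only controls. It was called higher in DKO (0.63 ± 0.14, adjusted p = 0.0207), a call that was lost without S12 or S14. Ikzf2, which encodes Helios, rose from 3.87, 4.04, 4.304 and 2.63 RPKM to 16.8, 25.9 and 24.1 RPKM (2.43 ± 0.19, adjusted p = 0.00039). All DKO libraries lay above all Ikzf1 KO libraries for Ikzf2. Ikzf4, which encodes Eos, was lower by -0.50 ± 0.13 (adjusted p = 0.0372), and this call was lost when all 15 libraries shared the spread, when any library but S5 was left out, and with precision weights on recovered reads scaled to their plain totals.

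Loss of Aiolos in cells without Ikaros was followed by changes in 1700 of 9540 genes (17.8%), with 759 higher in DKO (7.96%) and 941 lower (9.86%). Changes above 2-fold were more often rises: 259 genes rose and 209 fell by at least 1 on the log2 scale, and 35 rose and 9 fell by at least 3. The count of calls moved with the libraries: it was 794 without S12 and 3569 without S5, 3861 without S5 and S15, and 734 when all 15 libraries of the table shared the spread. Scaling by the plain totals of the recovered reads gave 1085 higher and 611 lower, or 64% higher against 44.6% higher with the deposited scaling. The share of rises was 47.5% after quantile normalization and 48.7% after median ratio rescaling, so falls stayed the more numerous with these 2 and not with the plain totals.

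**Figure D1:**
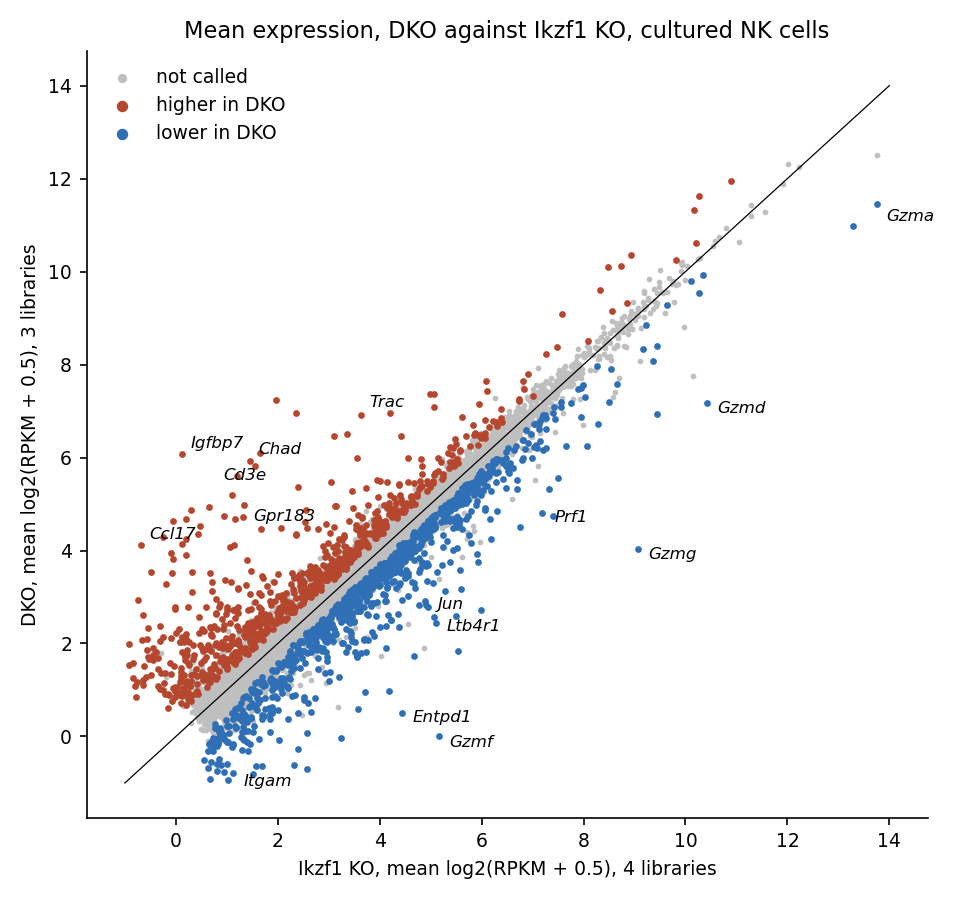
Mean log2(RPKM + 0.5) of each of the 9540 genes in the 4 Ikzf1 KO libraries (horizontal axis) and the 3 DKO libraries (vertical axis), with genes called higher in DKO in red, called lower in blue and not called in grey. The line marks equal levels; Igfbp7, Chad and Cd3e lie far above it and Gzmf, Gzmg and Entpd1 far below.

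In the plot of mean expression, the genes farthest above the line were weakly expressed in Ikzf1 KO cells, whereas those farthest below it included genes of high level such as Gzmd. Promoters of the genes at these extremes are printed next, as RefSeq gives them on mm10 (GRCm38.p6), for the 250 bases before the annotated start, 5′ to 3′ on the strand of the gene. Gzmd, Gzmf and Gzmg are neighbouring granzyme genes that fell together, and the capitals in their promoters mark a run of 36 bases that all 3 share.
Gzmd, chr14:56132594-56132843, minus strand: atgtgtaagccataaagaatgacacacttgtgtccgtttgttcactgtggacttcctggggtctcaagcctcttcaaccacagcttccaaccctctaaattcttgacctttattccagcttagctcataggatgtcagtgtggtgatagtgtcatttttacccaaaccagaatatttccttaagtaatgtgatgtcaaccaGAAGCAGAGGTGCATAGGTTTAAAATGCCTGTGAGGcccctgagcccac
Gzmf, chr14:56211408-56211657, minus strand: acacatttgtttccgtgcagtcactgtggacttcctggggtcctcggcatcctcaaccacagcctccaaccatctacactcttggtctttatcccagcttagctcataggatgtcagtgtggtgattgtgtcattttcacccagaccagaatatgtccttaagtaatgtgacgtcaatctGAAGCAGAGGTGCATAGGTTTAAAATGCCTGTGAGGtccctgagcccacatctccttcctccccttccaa
Gzmg, chr14:56159580-56159829, minus strand: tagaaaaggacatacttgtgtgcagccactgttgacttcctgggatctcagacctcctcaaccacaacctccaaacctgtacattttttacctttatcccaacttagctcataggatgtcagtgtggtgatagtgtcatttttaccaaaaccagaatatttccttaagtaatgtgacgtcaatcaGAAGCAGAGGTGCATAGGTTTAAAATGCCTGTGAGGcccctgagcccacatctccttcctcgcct
The aligned promoters were identical at 75% of positions between Gzmd and Gzmf, 78.9% between Gzmd and Gzmg and 82.7% between Gzmf and Gzmg.

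Entpd1 is shown because it had the fall with the smallest adjusted p, Cd3e because it was among the largest rises, and Igfbp7 because its rise was the largest of the named genes. Capitals mark the Ikaros family core TGGGAA.
Entpd1, chr19:40612116-40612365, plus strand: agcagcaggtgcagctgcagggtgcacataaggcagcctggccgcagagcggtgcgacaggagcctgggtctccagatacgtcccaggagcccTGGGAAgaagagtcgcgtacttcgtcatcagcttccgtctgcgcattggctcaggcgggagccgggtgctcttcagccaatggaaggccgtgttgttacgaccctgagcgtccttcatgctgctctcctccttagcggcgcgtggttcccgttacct
Cd3e, chr9:45009612-45009861, minus strand: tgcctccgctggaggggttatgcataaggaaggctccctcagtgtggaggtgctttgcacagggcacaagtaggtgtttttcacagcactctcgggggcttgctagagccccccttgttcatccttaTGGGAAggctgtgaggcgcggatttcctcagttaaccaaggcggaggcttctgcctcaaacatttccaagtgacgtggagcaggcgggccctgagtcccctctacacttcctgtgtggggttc
Igfbp7, chr5:77408046-77408295, minus strand: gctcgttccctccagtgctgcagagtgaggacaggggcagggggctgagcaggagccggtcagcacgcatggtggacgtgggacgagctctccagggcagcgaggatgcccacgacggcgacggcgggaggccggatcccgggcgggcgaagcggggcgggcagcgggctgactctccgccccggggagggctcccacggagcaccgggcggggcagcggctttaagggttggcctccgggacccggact
TGGGAA, searched on both strands, was found 1 time each in the windows of Entpd1 and Cd3e, and neither it nor the AP-1 motif TGANTCA was found in the other 4. Promoters were matched by symbol for 7333 of the 9540 genes. TGGGAA was in 21.2% of the windows of genes called higher, 20.6% of those called lower and 20.1% of all. The AP-1 motif was in 4.2%, 5.82% and 3.95% of the same windows. These are matches of letters in a short window and do not show binding.

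Among the largest rises, Igfbp7, which encodes a secreted protein that binds insulin-like growth factors, went from near 0 to a high level. Igfbp7 (mm10 chr5:77349240-77408041) was at 78.1, 67.4 and 57.6 RPKM in DKO and at 0.375, 0.478, 0.554 and 1.03 RPKM in Ikzf1 KO (5.96 ± 0.20, adjusted p = 1.19e-05). All 3 DKO libraries were far above all 4 Ikzf1 KO libraries. Ccl17, a chemokine that attracts CCR4-bearing T cells, was at 3.27, 28.3 and 48.4 RPKM against 0.2204, 0, 0.1303 and 0.173 RPKM (4.80 ± 0.76, adjusted p = 0.0053), with S5 the lowest of the DKO libraries. Chad encodes chondroadherin, a matrix protein, and was at 239, 45.4 and 20.2 RPKM against 2.56, 1.87, 2.31 and 2.196 RPKM (4.49 ± 0.69, adjusted p = 0.00489). Here S5 was the highest and S7 the lowest DKO library, and all DKO libraries still lay above all Ikzf1 KO libraries. Sit1, a membrane adaptor that restrains antigen receptor signalling, was at 10.2, 20.7 and 14.1 RPKM against 0.494, 0.7195, 0.637 and 0.775 RPKM (3.70 ± 0.22, adjusted p = 0.00014). Lif, a cytokine of the interleukin 6 family, rose by 2.88 ± 0.38, and Hid1, a protein of secretory granule formation, by 2.85 ± 0.35. Ramp1, part of the receptor for the neuropeptide CGRP, was at 6.397, 4.51 and 6.03 RPKM against 0.15, 0.191, 0.111 and 0.103 RPKM (3.25 ± 0.15, adjusted p = 3.32e-05), and its DKO values were close together.

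The largest falls held 3 granzymes, described further on, and genes of other functions. Entpd1 (mm10 chr19:40612366-40741602) encodes CD39, the ectoenzyme that degrades extracellular ATP, and was at 0.878, 1.22 and 0.694 RPKM in DKO against 21.99, 21.7, 22.5 and 18.6 RPKM in Ikzf1 KO (-3.93 ± 0.14, adjusted p = 1.19e-05). The values within each genotype were close together and the groups were far apart. Il1r2, the decoy receptor of interleukin 1, was at 0.0352, 0.617 and 1.05 RPKM against 7.87, 8.696, 9.34 and 10.1 RPKM (-3.28 ± 0.32, adjusted p = 0.000723). Rasd2, a small GTPase, was at 0, 0.0772 and 0.305 RPKM against 6.03, 5.48, 5.97 and 4.53 RPKM (-3.28 ± 0.19, adjusted p = 0.000126). Its value in S5 was 0. Fgr, a kinase of the Src family, was at 2.36, 2.57 and 3.69 RPKM against 27.2, 27.5, 26.97 and 19.1 RPKM (-2.93 ± 0.18, adjusted p = 0.00014). Irs2, an adaptor of insulin signalling, fell by 2.97 on the log2 scale, and Osgin1, a gene induced by oxidative stress, by 3.22. Mt2, a metallothionein that binds metal ions, was at 2.63, 4.42 and 18.01 RPKM against 66.5, 107, 82.3 and 27.3 RPKM (-3.28 ± 0.65, adjusted p = 0.0129), a call lost without S6. Ifi27l2a, an interferon-induced gene, was at 0.725, 3.602 and 8.51 RPKM against 44.8, 151, 65.98 and 9.6 RPKM (-3.70 ± 0.94, adjusted p = 0.0323). It varied widely within both groups, and the call was lost without S5, S6, S12, S13 or S14, with array weights, and with precision weights on the recovered reads.

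**Figure D2:**
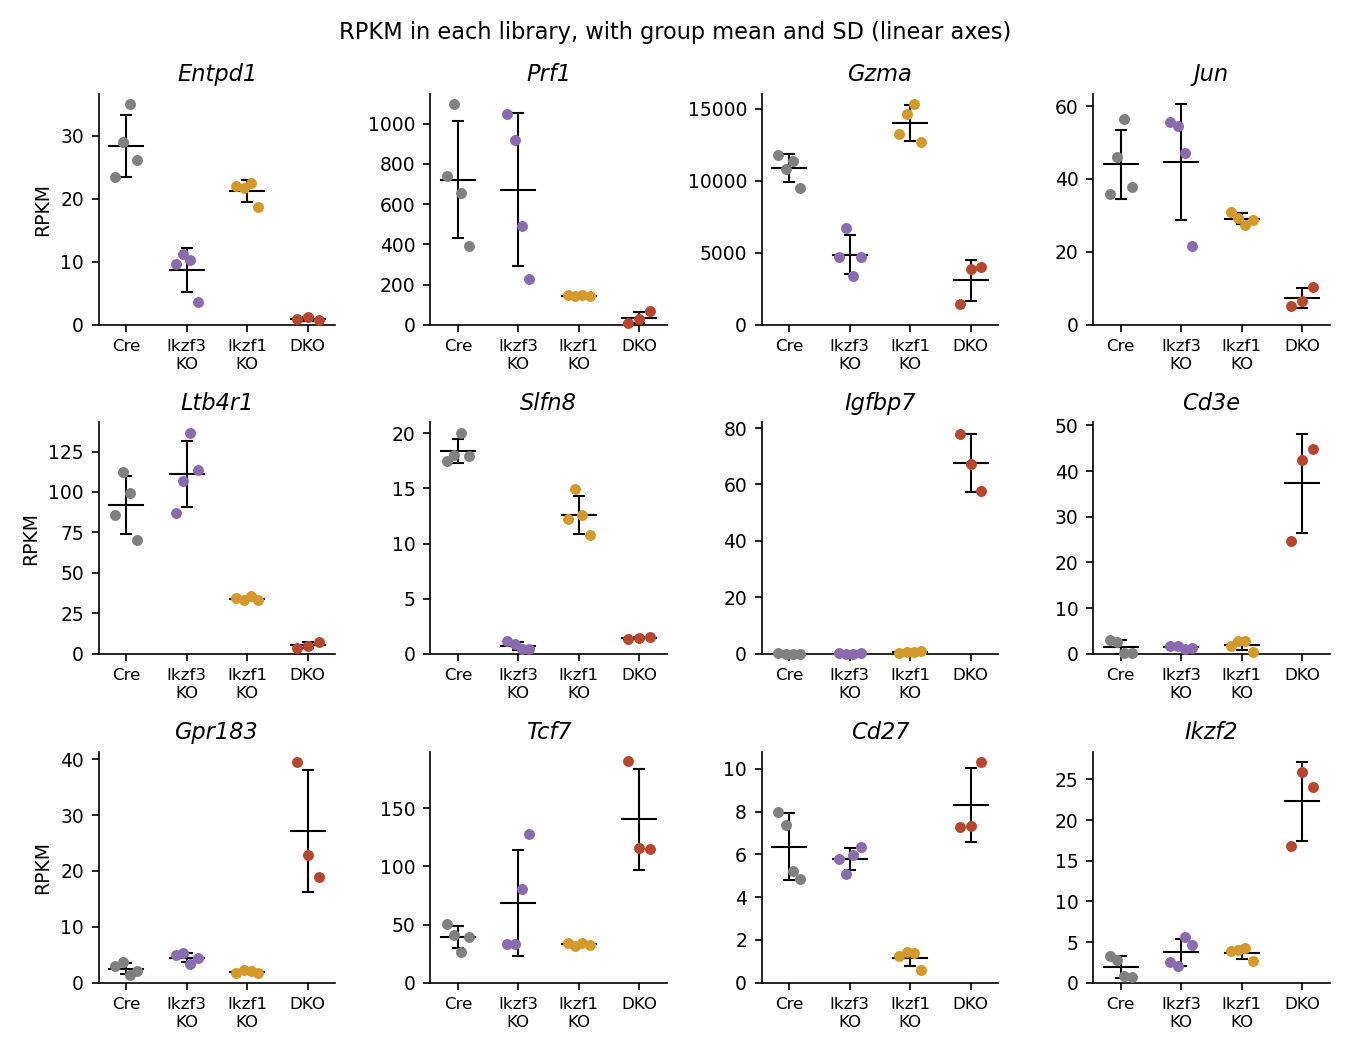
RPKM of 12 genes in each library of the 4 cultured genotypes, on linear axes that start at 0, with points for libraries, a horizontal line for the group mean and bars for the SD (4 libraries a group, 3 for DKO). Entpd1, Jun and Ltb4r1 were lower and Igfbp7, Cd3e, Gpr183 and Ikzf2 higher in every DKO library than in every Ikzf1 KO library.

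Members of gene lists were then counted, and the plot of list counts sets each list beside the shares of all genes, 7.96% higher and 9.86% lower. Without S5, 17.3% of all genes were called higher and 20.1% lower, and list counts without S5 are to be read against these shares. Leaving out any other library lowered the count of all genes called, from 1700 to between 794 and 1359.

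**Figure D3:**
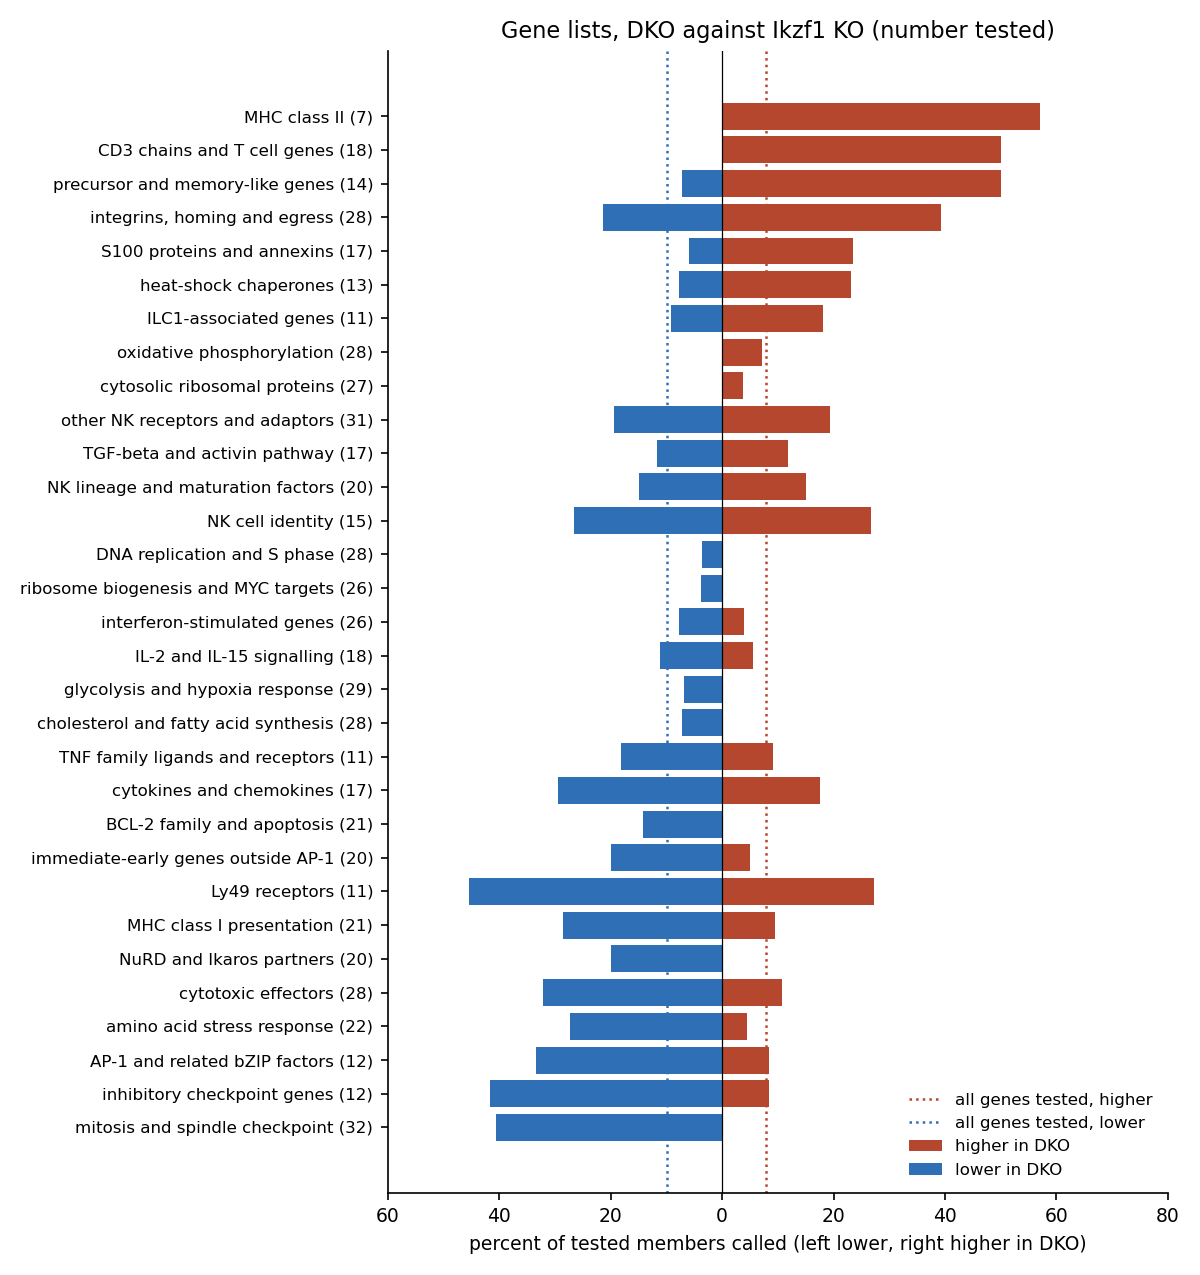
Percent of the tested members of each gene list called higher (red, to the right) or lower (blue, to the left) in DKO against Ikzf1 KO, with the number tested in parentheses and dotted lines at the shares of all genes tested (7.96% and 9.86%). MHC class II, CD3 and T cell genes and precursor genes have the largest shares of rises less falls, and mitosis and inhibitory checkpoint genes the largest shares of falls less rises; lists with under 7 tested members are left out.

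Genes of the killing machinery fell as well as rose. Of 28 cytotoxic effector genes tested, 9 were called lower and 3 higher, against 9.86% and 7.96% of all genes tested, and the median was -0.27, against -0.01 for all genes. Prf1, which encodes perforin, was at 10, 30.2 and 66.4 RPKM in DKO and 150.4, 144, 146 and 141 RPKM in Ikzf1 KO (-2.39 ± 0.52, adjusted p = 0.0178). The DKO values were spread widely while the Ikzf1 KO values lay close together, and the call was lost without S6, S12 or S14. Gzma, the trypsin-like granzyme, was at 1422, 3858 and 3974 RPKM against 13247, 14656, 15348 and 12673 RPKM (-2.32 ± 0.33, adjusted p = 0.00359). Gzmb, the granzyme that cleaves after aspartate and activates caspases, was at 753, 3134 and 3432 RPKM against 9590, 10391, 10323 and 9642 RPKM (-2.31 ± 0.47, adjusted p = 0.0149). For Prf1, Gzma and Gzmb alike, S5 was the lowest library. Prf1 and Gzmb were named after their values were seen.

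In the granzyme cluster next to Gzmb, the 3 granzymes named as largest falls fell by more than Gzmb. Other genes encoded near them did not: Ctsg (0.05 ± 0.66) and Mcpt8 (-1.78 ± 0.60) were not called. Gzmf was at 0.07304, 0.694 and 0.984 RPKM against 38.96, 69.1, 43.8 and 12.8 RPKM (-5.15 ± 0.55, adjusted p = 0.00112). For Gzmg the values were 2.73, 18.4 and 72.7 RPKM against 701, 1123, 849 and 124 RPKM (-5.03 ± 1.09, adjusted p = 0.0181). Gzmd was at 45.4, 166 and 397 RPKM against 1547, 1922, 1834 and 632 RPKM (-3.23 ± 0.70, adjusted p = 0.0176). S15 was the lowest Ikzf1 KO library for each of these 3 genes, S5 the lowest DKO library, and the groups did not overlap. The Gzmd call was lost without S6, S12 or S14 and the Gzmg call without S5, S6, S12, S13 or S14. Gzme, at 52.5, 307 and 607 RPKM against 1235, 1332, 1456 and 709 RPKM, did not pass the test (-2.41 ± 0.73, adjusted p = 0.0557). These granzymes have near-identical sequences, and reads may have been split between them or dropped, so the value of any single member is uncertain. Gzmk and Gzmm, granzymes encoded elsewhere, rose: Gzmk was at 10.1, 14.7 and 8.42 RPKM against 2.98, 3.15, 3.18 and 5.06 RPKM (1.49 ± 0.22, adjusted p = 0.00426), and Gzmm was at 2.83, 8.33 and 7.68 RPKM against 1.35, 1.07, 0.956 and 1.66 RPKM (1.84 ± 0.33, adjusted p = 0.0093). The cytotoxic list had 13 members lower and 4 higher without S5, but 3 lower and 3 higher without S6, S12 or S14. Over all genes, 20.1% were lower and 17.3% higher without S5, and fewer genes were called without S6, S12 or S14 (1007, 794 and 857).

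AP-1 genes were mostly lower where they changed. Of 12 AP-1 and related leucine zipper factors tested, 4 fell (Jun, Fos, Junb and Jund) and 1 rose (Batf3), and the median was 0.05. Jun was at 5.18, 6.51 and 10.3 RPKM in DKO against 30.9, 29.3, 27.3 and 28.7 RPKM in Ikzf1 KO (-1.97 ± 0.20, adjusted p = 0.000789). Fos, a partner of Jun, was at 0.1998, 0.647 and 0.632 RPKM against 1.78, 1.51, 2.11 and 2.702 RPKM (-1.36 ± 0.23, adjusted p = 0.00725), both low levels. Jund was at 72.2, 69.9 and 89.6 RPKM against 161, 121, 129 and 128 RPKM (-0.80 ± 0.13, adjusted p = 0.00623), and Junb at 55.1, 60.7 and 74.2 RPKM against 151, 132, 157 and 83.2 RPKM (-1.01 ± 0.22, adjusted p = 0.0192). All 3 DKO libraries lay below all Ikzf1 KO libraries for these 4 genes. The call of Junb, which was named after its values were seen, was lost without S6, S12, S13 or S14 and in 3 fits that shared the spread with other genotypes, and that of Jund when all 15 libraries shared the spread. Batf3, a leucine zipper factor that dimerizes with Jun proteins, went the other way, at 3.49, 7.68 and 9.42 RPKM against 0.887, 0.258, 0.336 and 0.585 RPKM (2.80 ± 0.34, adjusted p = 0.00185).

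Immediate-early genes, which are transcribed within minutes of stimulation, moved alike in part. Of 20 tested outside AP-1, 4 were lower and 1 was higher, with a median of -0.31. Egr1, a zinc finger factor, was at 3.38, 3.95 and 7.33 RPKM against 22.7, 22.99, 24.1 and 13.5 RPKM (-2.02 ± 0.28, adjusted p = 0.00321), with S15 the lowest Ikzf1 KO library. Ier2 fell by 0.88 and Dusp5, a phosphatase that inactivates ERK kinases, by 0.72 on the log2 scale. Dusp4, another such phosphatase, rose by 1.79 ± 0.16 (6.96, 6.95 and 5.52 RPKM against 1.61, 1.05, 1.64 and 1.82 RPKM, adjusted p = 0.000591). The calls of Egr1, Ier2 and Dusp5 were lost when all 15 libraries shared the spread.

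**Figure D4:**
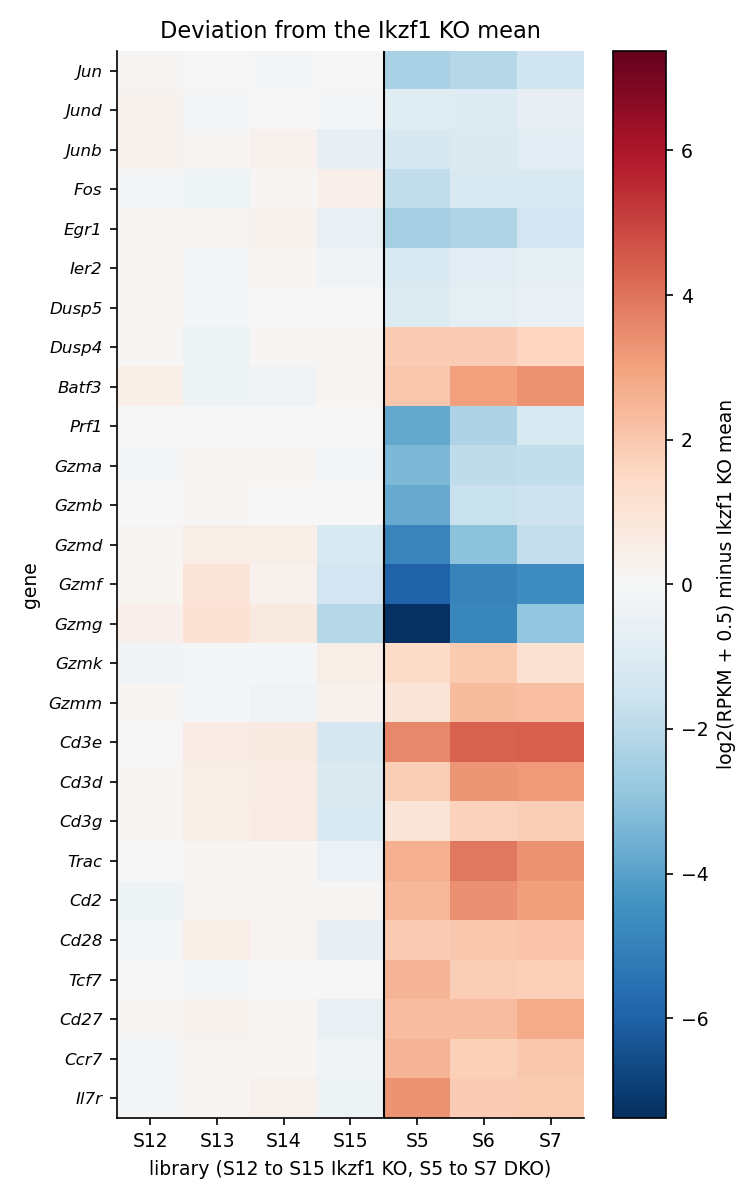
Deviation of log2(RPKM + 0.5) from the Ikzf1 KO mean, in colour, for 27 genes (rows) in the 4 Ikzf1 KO libraries and the 3 DKO libraries (columns). Jun, Prf1 and the granzymes Gzma, Gzmb, Gzmd, Gzmf and Gzmg are below the mean (blue) and Cd3e, Tcf7 and Cd27 above it (red) in all 3 DKO libraries; S15 is below the other Ikzf1 KO libraries for Gzmd, Gzmf, Gzmg and Cd3e.

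Genes of precursor and memory-like NK cells were mostly higher where they changed. Of 14 tested, 7 were higher and 1 lower (50% higher, against 7.96% of all genes), with a median of 0.60. Tcf7, the transcription factor TCF-1 of early NK and T cells, was at 190.3, 115 and 115 RPKM in DKO and 34.3, 31.6, 33.8 and 32.6 RPKM in Ikzf1 KO (2.03 ± 0.17, adjusted p = 0.000477). Cd27, a receptor of immature NK cells in mice, was at 7.295, 7.31 and 10.3 RPKM against 1.27, 1.42, 1.38 and 0.611 RPKM (2.42 ± 0.22, adjusted p = 0.000591). All 3 DKO libraries lay above all Ikzf1 KO libraries for both genes, and S5 was the highest for Tcf7. Il7r, the interleukin 7 receptor, rose by 2.36 ± 0.35, and Ccr7, the chemokine receptor of lymph node entry, by 2.09 ± 0.21, with levels of 3.67, 1.96 and 2.45 RPKM against 0.201, 0.334, 0.305 and 0.112 RPKM. Leaving out S5 gave 9 higher and 2 lower.

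Factors of NK lineage and maturation went in both directions, with 3 of 20 higher, 3 lower and a median of 0.03. Without S5, 4 were higher and 8 lower. Eomes, which is needed to make and keep NK cells, was at 79.8, 67.8 and 67.8 RPKM against 49, 49.6, 44.2 and 47.4 RPKM (0.59 ± 0.09, adjusted p = 0.00513). Aff3, a nuclear protein of lymphoid cells, was at 5.03, 2.17 and 2.68 RPKM against 0.0937, 0.149, 0.141 and 0.334 RPKM (2.42 ± 0.26, adjusted p = 0.00112). Prdm1, which encodes the maturation factor Blimp-1, was at 7.42, 5.35 and 8.67 RPKM against 19.2, 19.5, 18.4 and 11.6 RPKM (-1.21 ± 0.22, adjusted p = 0.00919), and S15 was the lowest Ikzf1 KO library. Stat4, which carries the interleukin 12 signal, fell by 0.68 on the log2 scale. Il12rb2, which encodes a chain of the interleukin 12 receptor, was at 170.3, 138 and 133 RPKM against 360.2, 349.6, 352 and 393 RPKM (-1.31 ± 0.11, adjusted p = 0.000399). Tbx21, which encodes T-bet and was named after its values were seen, was at 82.1, 42.7 and 48.7 RPKM against 65.6, 56.1, 59.8 and 65.2 RPKM and did not pass the test (-0.15 ± 0.21, adjusted p = 0.641), though it was called lower without S5 (-0.43).

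Receptors of the Ly49 family, which bind MHC class I, changed in both directions. Of 11 tested, 5 were lower and 3 higher, with a median of -0.25. Klra8, which encodes the activating receptor Ly49H, was at 32.02, 19.2 and 17.4 RPKM against 81.99, 107, 105 and 141 RPKM (-2.25 ± 0.24, adjusted p = 0.00112). Klra9 was at 20.5, 15.3 and 17.01 RPKM against 44.3, 61.1, 52.2 and 63.7 RPKM (-1.62 ± 0.15, adjusted p = 0.000612), and Klra5 was at 4.03, 7.72 and 9.15 RPKM against 26.8, 26.2, 33.6 and 32.1 RPKM (-2.08 ± 0.24, adjusted p = 0.00167). For each, every DKO library lay below every Ikzf1 KO library. Klra6 and Klra1, named after their values were seen, rose by 1.99 ± 0.45 and 1.26 ± 0.34. The call of Klra6 was lost with array weights and without S6, S7, S12 or S15, and that of Klra1 when all 15 libraries shared the spread and without S6, S7, S12, S13, S14 or S15. The number of Ly49 genes called higher was 0 without S6, S7, S12 or S15, and 1 without S13 or S14. Ly49 genes are close copies of each other, and their values are uncertain for the same reason as those of the granzymes.

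Of 31 other NK receptors and adaptors, 6 rose and 6 fell. Ncr1, which encodes NKp46, rose by 0.83 ± 0.11 (adjusted p = 0.0031), a call lost when all 15 libraries shared the spread. Klrc1, which encodes NKG2A and was named after its values were seen, was at 196, 239 and 174 RPKM against 57.99, 97.6, 79.99 and 45.4 RPKM (1.57 ± 0.25, adjusted p = 0.00574). Il18r1, the interleukin 18 receptor, was at 82.2, 53.4 and 55.4 RPKM against 26.3, 29.3, 28.4 and 26.8 RPKM (1.16 ± 0.15, adjusted p = 0.00257). Tyrobp, the adaptor DAP12 of activating receptors, was at 343, 220.1 and 255 RPKM against 627, 632, 637 and 731 RPKM (-1.29 ± 0.15, adjusted p = 0.00162). Fcgr3, the Fc receptor CD16 that mediates killing of antibody-coated cells, was at 58.9, 42.7 and 37.4 RPKM against 95.9, 96.5, 106 and 115 RPKM (-1.17 ± 0.16, adjusted p = 0.00273). Without S5 this list had 12 members higher and 7 lower.

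Inhibitory checkpoint genes were more often lower. Of 12 tested, 5 fell, including Entpd1 described above, and 1 rose, with a median of -0.77, or -0.50 without S5. The count of falls was 2 without S12, S13 or S14 and 3 without S6. Pvrig, an inhibitory receptor of the nectin family, was at 13.9, 13.5 and 11.5 RPKM against 26.7, 27.97, 28.7 and 28.2 RPKM (-1.08 ± 0.09, adjusted p = 0.00043). Vsir, which encodes VISTA, was at 18.02, 7.51 and 13.7 RPKM against 34.2, 35.5, 34.9 and 20.5 RPKM (-1.27 ± 0.30, adjusted p = 0.0249). Cd300a was at 0.0567, 0.487 and 0.818 RPKM against 1.84, 1.74, 1.82 and 1.295 RPKM (-1.27 ± 0.28, adjusted p = 0.0192). The Vsir call was lost without S6, S7, S12, S13 or S14 and when all 15 libraries shared the spread, and the Cd300a call without S12, S13 or S14.

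Integrins and homing receptors divided into a larger rising and a smaller falling set. Of 28 tested, 11 rose (39.3%) and 6 fell (21.4%), with a median of 0.17. Cxcr3, the receptor for interferon-induced chemokines, was at 80.2, 61.1 and 50.7 RPKM against 22.9, 22.1, 22.9 and 24.01 RPKM (1.43 ± 0.15, adjusted p = 0.000855). Gpr183, an oxysterol receptor that positions lymphocytes, was at 39.5, 22.9 and 18.9 RPKM against 1.75, 2.35, 2.07 and 1.82 RPKM (3.40 ± 0.23, adjusted p = 0.000277). Cxcr4, the receptor for CXCL12 that retains cells in bone marrow, was at 15.3, 21.8 and 29.8 RPKM against 3.23, 4.66, 3.78 and 0.762 RPKM (2.79 ± 0.47, adjusted p = 0.00674), a call lost when all 15 libraries shared the spread. S15 was the lowest Ikzf1 KO library for Cxcr4. Jaml, an adhesion molecule, was at 6.37, 6.95 and 10.99 RPKM against 1.81, 3.11, 2.89 and 1.52 RPKM (1.61 ± 0.26, adjusted p = 0.00576).

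Among the falls of this list, Ltb4r1, a receptor for leukotriene B4, was at 3.37, 4.96 and 7.18 RPKM against 34.2, 33.5, 35.5 and 33.3 RPKM (-2.67 ± 0.20, adjusted p = 0.00033). Itgax, which encodes the integrin chain CD11c, was at 15.5, 2.71 and 3.71 RPKM against 44.3, 39.03, 41.01 and 54.9 RPKM (-2.90 ± 0.49, adjusted p = 0.00686). Itgam, which encodes CD11b, a chain gained as mouse NK cells mature, was at 0.0935, 0.0488 and 0.08997 RPKM against 1.65, 1.84, 1.85 and 1.42 RPKM (-1.92 ± 0.14, adjusted p = 0.00033). The groups did not overlap for these 3 genes. With precision weights on recovered reads, where the added constant is smaller, the change of Itgam was -4.40. Cmklr1, the chemerin receptor, fell by 1.91 on the log2 scale, with S5 at 2.90 RPKM and S6 and S7 at 0.389 and 0.436 RPKM, and its call was lost when any library but S5 was left out.

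Cytokine genes were also split, with 3 of 17 higher and 5 lower, or 6 and 6 without S5 and 2 and 2 without S6 or S12. Ccl5 and Ccl4, chemokines released by activated NK cells, fell: Ccl5 was at 41.7, 84.2 and 119.7 RPKM against 278, 209, 264 and 333 RPKM (-1.83 ± 0.33, adjusted p = 0.0087), and Ccl4 was at 15.8, 55.9 and 68.7 RPKM against 180, 163, 215 and 101.2 RPKM (-2.0 ± 0.49, adjusted p = 0.0272). The Ccl4 call was lost when all 15 libraries shared the spread and without S6, S12, S13 or S14. Ccl9 was also lower, by -1.07 ± 0.20 (adjusted p = 0.00995). Lta, which encodes lymphotoxin alpha, rose by 1.49 ± 0.25, from 1.02, 1.02, 1.31 and 1.09 RPKM to 2.33, 5.71 and 4.76 RPKM. In the list for interleukin 2 and 15 receptor signalling, 2 of 18 genes were lower and 1 was higher (5 and 3 without S5). Stat3 was at 20.95, 12.7 and 16.7 RPKM against 42.8, 35.98, 37.1 and 33.5 RPKM (-1.15 ± 0.16, adjusted p = 0.00349). Jak3, the kinase of the common gamma chain, fell by 0.99 on the log2 scale, a call lost without S6 or S12, and the feedback inhibitor Socs2 rose by 0.52 ± 0.11, a call lost without S12 and when all 15 libraries shared the spread.

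T cell genes that passed the test were higher in DKO. Of 18 CD3 chains and T cell genes tested, 9 were higher and none lower (50% higher, against 7.96% of all genes), and the median was 0.98, or 0.48 in the fit with precision weights on recovered reads. Cd3e, a chain of the T cell receptor complex, was at 24.8, 42.4 and 44.8 RPKM in DKO against 1.64, 2.73, 2.87 and 0.403 RPKM in Ikzf1 KO (4.09 ± 0.45, adjusted p = 0.00129). Trac, the constant gene of the T cell receptor alpha chain, was at 76.8, 185 and 121 RPKM against 12.4, 14.1, 13.3 and 8.795 RPKM (3.27 ± 0.28, adjusted p = 0.000486). Cd2, an adhesion receptor of T and NK cells, was at 28.7, 54.04 and 43.95 RPKM against 3.48, 5.64, 5.195 and 5.004 RPKM (2.98 ± 0.23, adjusted p = 0.00035). Cd28, the costimulatory receptor, was at 18.6, 20.3 and 21.4 RPKM against 4.28, 6.84, 5.31 and 2.95 RPKM (2.0 ± 0.23, adjusted p = 0.00156). S5 was the lowest DKO library for Cd3e, Trac, Cd2 and Cd28, and S15 the lowest Ikzf1 KO library for Cd3e, Trac and Cd28. Cd3d and Cd3g, named after their values were seen, rose by 2.74 ± 0.47 and 1.5 ± 0.42, and the Cd3g call was lost without S6, S7, S12, S13 or S14, with array weights and in 3 fits that shared the spread. Without S5 the list had 11 members higher and none lower.

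Receptor segments moved too. All 6 gamma V and J segments tested were higher (median 3.85), all 3 gamma constant genes were higher, and 21 of 30 beta segments were higher and 1 lower (median 3.49). The beta median counts each segment alike, and the summed beta values moved less. They were 886.7, 1694 and 1414 RPKM in DKO against 745.5, 871.5, 776.7 and 909.7 RPKM in Ikzf1 KO, with S5 within the Ikzf1 KO range. Tcrg-C4, a gamma constant gene, was at 87.1, 75.9 and 113 RPKM against 8.05, 12.8, 12.3 and 6.95 RPKM (3.16 ± 0.24, adjusted p = 0.00033). Of 10 alpha and delta segments, 3 were higher and 2 lower, and Trbc1, a beta constant gene, was at 202, 410.1 and 315 RPKM against 231, 257, 259.6 and 255 RPKM and did not pass the test (0.25 ± 0.21, adjusted p = 0.446), though it was called higher without S5 (0.52). Of the defining T cell markers, Cd4 was at 1.299, 1.265 and 0.256 RPKM in DKO and at 0.0984, 0.102, 0.0831 and 0.143 RPKM in Ikzf1 KO. Cd8a was at 0.0554, 0.0405 and 0.0355 RPKM against 0.109, 0.295, 0.368 and 0.0611 RPKM. Both genes were under the filter. Lck and Zap70, kinases that NK and T cells share and named, like Trbc1, after their values were seen, were not called (0.13 ± 0.12, adjusted p = 0.482 and -0.22 ± 0.13, adjusted p = 0.288). The 9 T cell markers in the table summed to 797.6 to 1644 RPKM in DKO and 450.2 to 540.7 RPKM in Ikzf1 KO, and 6 of the 7 tested were higher. NK markers summed to 4667 to 9753 RPKM in DKO and 25416 to 28388 RPKM in Ikzf1 KO, sums in which Gzma and Gzmb weigh most. The few myeloid markers of this set in the table summed to 1.47 to 3.47 RPKM in DKO and 1.41 to 1.77 RPKM in Ikzf1 KO. Markers of innate lymphoid cells of types 2 and 3 were higher in every DKO library (sums of 1.68 to 3.37 RPKM against 0.121 to 0.246 RPKM), and mast cell and basophil markers lower (5.47 to 39.1 RPKM against 49.6 to 79.3 RPKM). The mast cell and basophil sums cover 3 of 6 markers and came mostly from Mcpt8 (37.2 of 39.1 RPKM in S7 and 60.5 of 62.8 RPKM in S12). Mcpt8 lies near the granzyme genes on chromosome 14 and was not called (adjusted p = 0.0755). In longer lists, 3 of 6 tested genes of innate lymphoid types 2 and 3 rose (Nrp1, Tnfsf11 and Lta) and 2 fell, and none of 4 mast cell and basophil genes was called. Neither of 2 myeloid genes was called: Cd68, a lysosomal protein of macrophages, was at 4.01, 8.43 and 17 RPKM against 19.3, 20.8, 21.2 and 19.1 RPKM (-1.21 ± 0.38, adjusted p = 0.0628), and was called lower without S5 (-0.72) or S7 (-1.70). Nrp1, which encodes neuropilin 1, was at 14.9, 7.45 and 8.52 RPKM against 5.42, 5.18, 5.05 and 4.74 RPKM (0.89 ± 0.21, adjusted p = 0.0251), a call lost without S12, S13, S14 or S15 and when all 15 libraries shared the spread. In these bulk samples, more cells of a type and more RNA per cell cannot be told apart, and the part of T cells or of these other cells in the changes was not tested.

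Of 7 genes of MHC class II, the molecules that present antigen to CD4 T cells, 4 were higher and none lower, with a median of 0.63. H2-Aa was at 8.99, 8.01 and 11.99 RPKM against 1.12, 1.72, 1.47 and 2.28 RPKM (2.25 ± 0.21, adjusted p = 0.000591). Cd74, the invariant chain, was at 17.6, 22.3 and 34.9 RPKM against 5.83, 3.16, 4.32 and 9.58 RPKM (2.08 ± 0.35, adjusted p = 0.00713). H2-Eb1 rose by 1.51 ± 0.24, a call lost with array weights, and H2-DMa by 0.63 ± 0.15, a call lost without S7, S12, S13 or S14 and when all 15 libraries shared the spread. B cells also make class II molecules: of 14 B cell markers 3 were in the table, and 1 of them was called. Ighm, the immunoglobulin mu constant gene, was at 195, 163 and 140.3 RPKM against 27.3, 31.5, 29.2 and 47.5 RPKM (2.30 ± 0.20, adjusted p = 0.000486). Cd79b, a chain of the B cell receptor, was at 0.516, 2.23 and 1.63 RPKM against 1.35, 1.15, 1.55 and 0.777 RPKM (0.10 ± 0.33, adjusted p = 0.849), with overlapping groups. Bank1, a B cell adaptor, was at 1.87, 1.704 and 1.62 RPKM against 0.946, 0.805, 0.895 and 1.51 RPKM (0.56 ± 0.17, adjusted p = 0.0584), with every DKO library above every Ikzf1 KO library and a call without S15 (0.69). The part of B cells in the class II values was not tested. Of 21 MHC class I presentation genes, 6 were lower and 2 higher: H2-K1, a classical class I heavy chain, was at 933, 993 and 989 RPKM against 1404, 1315, 1271 and 1232 RPKM (-0.42 ± 0.08, adjusted p = 0.0114), and H2-Q4 fell by 0.52 on the log2 scale. The counts of this class I list were 6 lower and 7 higher without S5 and 3 lower and none higher without S14. The H2-K1 call was lost when all 15 libraries shared the spread, and class I genes are close copies of each other.

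Of 32 mitosis and spindle checkpoint genes, 13 were lower and none higher (40.6%, against 9.86%), with a median of -0.31, while of 28 DNA replication and S phase genes 1 was lower and none higher, with a median of -0.06. Without S5, 8 of these 28 were higher and 1 lower. Kif20a, a kinesin of cytokinesis, was at 18.9, 20.9 and 20.3 RPKM against 32.3, 29.5, 31.8 and 29.2 RPKM (-0.61 ± 0.08, adjusted p = 0.00293). Prc1, which bundles microtubules of the spindle midzone, fell by 0.63, the kinase Aurka by 0.57 and the transcription factor Foxm1 by 0.55 on the log2 scale. For these 4 genes the groups did not overlap. None of the 13 was called when Cre only libraries, or all 15 libraries, shared the spread, and the count was 8 without S12 and 17 without S5.

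Glycolysis genes had the lowest median of the metabolic lists, -0.85 over 29 rows (Aldoa stands under 2 gene identifiers with the same values), yet 2 passed the test. Gapdh was at 117, 178 and 332 RPKM against 407, 390.2, 382 and 437 RPKM (-1.08 ± 0.30, adjusted p = 0.0422). Pkm, which encodes pyruvate kinase, was at 236, 264 and 607 RPKM against 685, 644, 647 and 801 RPKM (-1.04 ± 0.30, adjusted p = 0.0478). For Gapdh and Pkm alike, S7 was far above S5 and S6 and near the Ikzf1 KO libraries. The median of the list was -0.55 without S5 and -1.41 without S7. Leaving out S7 gave 16 of the 29 lower, leaving out S6, S12, S13 or S14 gave none, and the calls of Gapdh and Pkm were lost without S6, S12, S13, S14 or S15, that of Pkm also without S5. Of 26 ribosome biogenesis genes 1 was called and of 27 cytosolic ribosomal proteins 1, both under the shares for all genes. Without S5, 11 of the 26 and 10 of the 27 were higher, against 17.3% of all genes in that fit. Of 28 cholesterol and fatty acid synthesis genes 2 were lower in the comparison of all 7 libraries and 18 were higher without S5 and S15, so no direction is given for that list.

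The amino acid stress response, the program of ATF4, had 6 of 22 genes lower and 1 higher, with a median of -0.23. The count of lower genes was 2 without S12, S13, S14 or S15 and when all 15 libraries shared the spread, and 3 without S7. Atf5 was at 3.64, 2.98 and 4.67 RPKM against 7.22, 7.33, 8 and 7.05 RPKM (-0.91 ± 0.14, adjusted p = 0.00463). Ddit3, which encodes CHOP, fell by 0.77, a call lost when all 15 libraries shared the spread. Bim (gene Bcl2l11), a trigger of apoptosis, was at 12.3, 18.9 and 24.7 RPKM against 42.5, 38.8, 36.3 and 39.5 RPKM (-1.11 ± 0.20, adjusted p = 0.00988). Bmf, another trigger of apoptosis, was at 9.33, 3.203 and 5.72 RPKM against 16.5, 15.6, 17.2 and 21.2 RPKM (-1.56 ± 0.29, adjusted p = 0.0103), and the survival gene Bcl2a1d fell by 1.70. In all, 3 of 21 BCL-2 family and apoptosis genes were lower and none higher (7 lower and 2 higher without S5); the call of Bcl2a1d was lost without S12 and when all 15 libraries shared the spread.

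Whether the loss of Aiolos moved the same genes when Ikaros was present was examined with the Ikzf3 KO and Cre only libraries, which share no library with the comparison above. Across the 9540 genes, the 2 sets of log2 fold changes had a Pearson r of 0.16 and a Spearman rho of 0.20, as a description across genes that are not independent. Of the 759 genes higher in DKO against Ikzf1 KO, 99 (13%) were also called higher in Ikzf3 KO against Cre only, which is 18.5% of the 534 called there in the fit of 15 libraries. Over all genes tested, 5.6% were called higher there and 7.71% lower. Of the 941 lower genes, 145 (15.4%) were also called lower, which is 19.7% of the 736 called there. Of the higher genes 63.1% had a positive change with Ikaros, against 47.3% of all genes, and of the lower genes 65.7% had a negative one, against 52.7%. Opposite calls were made for 48 of the higher and 32 of the lower genes. The 2 sets of calls came from unlike fits, of 7 and of 15 libraries, and the shared calls were not counted within a single fit. Ikzf3 KO libraries S3 and S4 stood apart from S1 and S2, and without them 61 higher and 109 lower genes were called in the same direction.

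Ikzf3 itself fell alike on loss of Aiolos, by -1.21 ± 0.11 with Ikaros and -1.15 ± 0.09 without it. AA465934, named after its values were seen, was at 23.98, 31.1 and 23.98 RPKM in DKO and 24.2, 28.99, 22.1 and 33.3 RPKM in Ikzf3 KO S1 to S4, against 1.75, 1.51, 0.942 and 1.63 RPKM in Ikzf1 KO and 0.876, 1.05, 1.36 and 1.38 RPKM in Cre only S16 to S19. Its rise was 3.79 ± 0.18 without Ikaros and 4.05 ± 0.17 with Ikaros. Slfn8, a Schlafen family gene of lymphocytes, was at 1.33, 1.46 and 1.53 RPKM in DKO and 12.2, 14.9, 12.6 and 10.7 RPKM in Ikzf1 KO, and at 1.15, 0.919, 0.447 and 0.443 RPKM in Ikzf3 KO and 17.5, 18.1, 20 and 17.9 RPKM in Cre only. It fell in both settings, by -2.75 ± 0.12 without Ikaros and -3.97 ± 0.17 with Ikaros. Ccl5 fell in both settings too, by -1.83 ± 0.33 and -4.45 ± 0.32. Ramp1 rose by 3.25 ± 0.15 without Ikaros and by 3.13 ± 0.87 with Ikaros, but the latter rests on S3 and S4 (20.5 and 24.1 RPKM), since S1 and S2 were at 0.418 and 0.452 RPKM. Tesc, a calcium-binding protein, was called lower in both settings, by -2.14 ± 0.52 and -1.92 ± 0.40; the first was -1.42 without S5, and its call was lost without S7, S12, S13, S14 or S15.

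**Figure D5:**
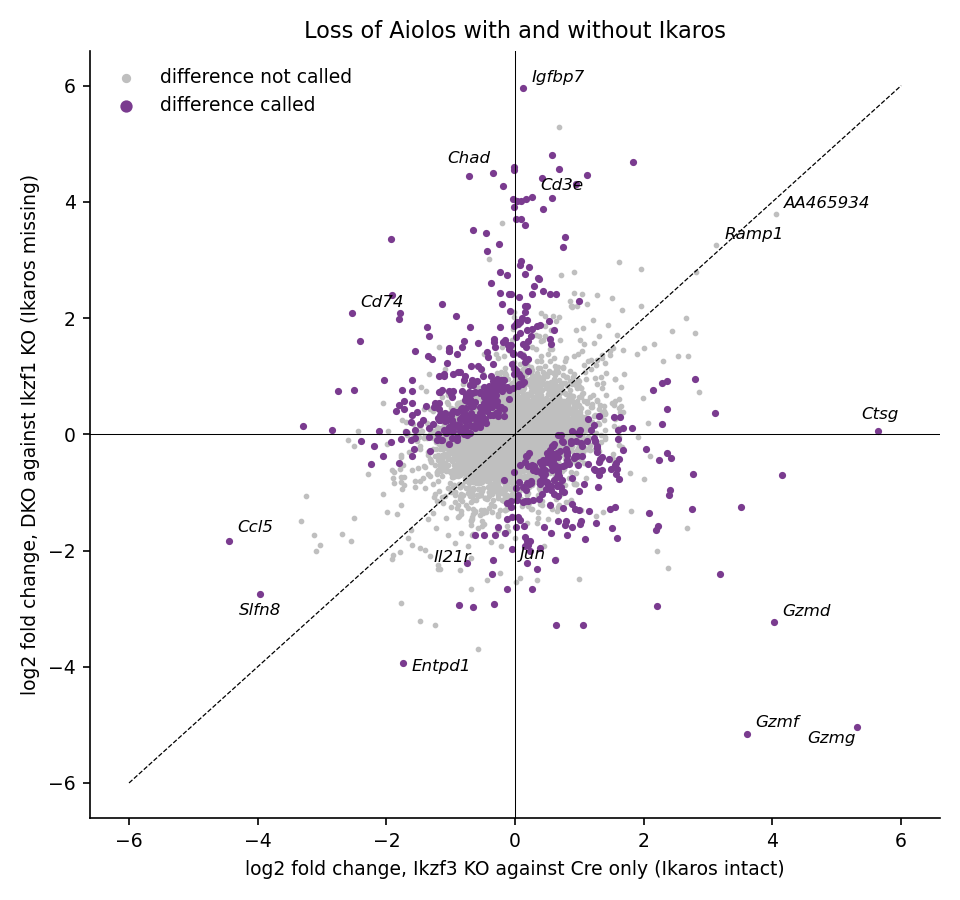
Log2 fold change of each of the 9540 genes on loss of Aiolos with Ikaros intact (Ikzf3 KO against Cre only, horizontal axis) and with Ikaros missing (DKO against Ikzf1 KO, vertical axis), with the 581 genes whose changes differed in the test of the difference in purple. The dashed line marks equal change; AA465934 and Ramp1 lie near it, Igfbp7 and Cd3e lie far above it and Gzmd, Gzmf and Gzmg far below.

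The difference between the 2 changes was tested for every gene in a fit of all 15 libraries, and 581 genes (6.09%) were called, 346 with a more positive change without Ikaros and 235 with a more negative one. Of these 581, 260 were called in DKO against Ikzf1 KO and not in Ikzf3 KO against Cre only, 205 were called the other way round, 80 in both with opposite signs and 11 in both with the same sign. This split depends on unlike fits. DKO against Ikzf1 KO had 1700 calls in the fit of its own 7 libraries used here. It had 734 when all 15 libraries shared the spread, as they did for Ikzf3 KO against Cre only. Igfbp7 changed by 5.96 ± 0.20 without Ikaros and 0.13 ± 0.18 with it, a difference of 5.83 ± 0.27 (adjusted p = 2.1e-08). For Cd3e the difference was 3.84 ± 0.77 (adjusted p = 0.00878), for Trac 3.52 ± 0.51 (adjusted p = 0.00123) and for Cd27 2.51 ± 0.30 (adjusted p = 0.00046). Cxcr3 rose without Ikaros and fell with it (1.43 ± 0.15 and -1.56 ± 0.24), a difference of 2.99 ± 0.36 (adjusted p = 0.000507). Jaml and Cd74 likewise rose without Ikaros and fell with it, with differences of 4.02 ± 0.34 (adjusted p = 4.21e-05) and 4.61 ± 0.77 (adjusted p = 0.00326). In the other direction, Gzmd, Gzmf and Gzmg fell without Ikaros and rose with it: Gzmg was at 3009, 3548, 2901 and 829 RPKM in Ikzf3 KO and 93.5, 202, 59.6 and 8.41 RPKM in Cre only, and the difference of its changes was -10.35 ± 1.52 (adjusted p = 0.00134). For Gzmf it was -8.75 ± 1.23 (adjusted p = 0.00116), and for Gzmd -7.25 ± 1.19 (adjusted p = 0.00305). Gzme, not called without Ikaros, rose by 3.18 ± 0.89 with it, a difference of -5.60 ± 1.31 (adjusted p = 0.0212). Gzmb, which fell without Ikaros, did not pass the test with it (-1.16 ± 0.58, adjusted p = 0.171). The difference of its changes did not pass the test either (-1.15 ± 0.85, adjusted p = 0.46). Its Ikzf3 KO values in S1 to S4 were split, at 9104, 10586, 1841 and 1795 RPKM, against 9827, 11121, 9187 and 7955 RPKM in Cre only.

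Ctsg, the serine protease cathepsin G encoded in the same cluster, did not pass the test on loss of Aiolos without Ikaros (0.05 ± 0.66, adjusted p = 0.967) and rose by 5.64 ± 0.54 with Ikaros, a difference of -5.60 ± 0.79 (adjusted p = 0.00116). Its levels were 2.99, 22.9 and 24.9 RPKM in DKO, 10.6, 18.1, 12.8 and 7.96 RPKM in Ikzf1 KO, 42.9, 41.01, 78.8 and 37.9 RPKM in Ikzf3 KO and 0.737, 1.12, 0.288 and 0.0592 RPKM in Cre only. Jun changed by -1.97 ± 0.20 without Ikaros and -0.05 ± 0.27 with it, a difference of -1.92 ± 0.40 (adjusted p = 0.0104). Batf3 differed by 3.03 ± 0.38 (adjusted p = 0.000567), while Fos, at -1.36 ± 0.23 and -1.27 ± 0.26, had a difference of -0.10 ± 0.38 (adjusted p = 0.901) that did not pass the test. Ltb4r1, at 87.3, 107, 136 and 114 RPKM in Ikzf3 KO and 85.9, 113, 99.4 and 70.3 RPKM in Cre only, differed by -2.94 ± 0.29 (adjusted p = 0.00014). Entpd1 fell in both settings, and by more without Ikaros, with a difference of -2.19 ± 0.40 (adjusted p = 0.00524). The call of Gzme in this test was lost without S5, and the count of genes called was 342 without S13, 749 without S1 and 947 without S3 and S4.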

How the data were processed

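Polyadenylated RNA was sequenced on single-end, strand-marking libraries, per the labels' protocols. The deposited file is a table of RPKM, computed by the authors, for 11736 genes in 15 libraries; STAR, featureCounts, limma 3.34.9 and mm10 are named in the submitters' processing notes, with roles, settings and normalization not given in the sources used here. Whole reads were recovered from the RPKM steps with GENCODE M21 exon lengths: 11291 of 11732 genes (96.2%) were whole within 0.02 read. They gave the depths (11.3 to 21.2 megareads in the 7 libraries compared) and 2 count-based alternatives, of which the one scaled as deposited called 1721 genes.

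Values were transformed to log2(RPKM + 0.5) for genes at 1 RPKM or more in 3 or more of the 7 libraries, then tested with limma 3.58.1 in R 4.3.3, using a mean-variance trend, robust empirical Bayes moderation and Benjamini-Hochberg adjustment. Only the 2 groups compared entered the fit, because the median SD per gene was 0.36 in Ikzf3 KO, against 0.121 in Ikzf1 KO, 0.206 in DKO and 0.17 in Cre only; the difference of differences and Ikzf3 KO against Cre only used all 15 libraries. On data simulated for DKO against Ikzf1 KO (9540 genes) the test called 76% of genes planted at 2-fold, 96% at 4-fold and 11 of 9340 unchanged. Planted genes had a mean of at least 5 RPKM in Ikzf1 KO, and noise was independent, with 1 SD per gene for both groups. These shares may not hold for weaker genes or where a library departs across many genes, as S5 does. Nothing says which libraries came from separate mice beyond the label of biological replicates, so p-values measure the spread between these libraries.

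Members, lists and rules were chosen with earlier results of these data known. Genes named were Ikzf1 and Ikzf3, the 12 largest rises and 12 largest falls called with group values that did not overlap and a mean of at least 5 RPKM on the higher side, up to 4 members per list with the smallest adjusted p, the 5 largest differences of differences in each direction, and the 5 per direction called alike in both settings, without predicted genes or receptor segments. Other genes are marked in the text, and 1 gene that the rule names is not reported here. Genes outside the table, such as the marker Il2rb, were not analysed here. Figures were drawn in Python 3.11.15 with matplotlib 3.10.9.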

Additional observations from a re-analysis of the deposited data

Results flagged for a closer look

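Of the 120 genes described, 9 had an Ikzf1 KO library far from the other 3. In S15, Fgr (19.05 RPKM), Egr1 (13.48), Prdm1 (11.59), Vsir (20.46) and Pecam1 (34.59) were the lowest and Gzmk (5.056) and Tyrobp (731.1) the highest values of the group. In S12, Ncr1 (100.3 RPKM) was the lowest and Foxm1 (20.1) the highest. Chance alone gives such a gap in about 1 in 20 groups, and 7 of the 9 were in S15, a library for which no label gives a batch. The genes were named partly by these same values and are not independent, and the count of 9 was not tested against that rate. The DKO group, with 3 libraries, was not examined in this way.

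The change on loss of Aiolos differed with the state of Ikaros for 46 of these genes, by the test of the difference of differences in all 15 libraries (limma, Benjamini-Hochberg adjusted p below 0.05). The values that follow are this difference on the log2 scale, positive where the change was more positive without Ikaros. It was positive for 26 genes: Igfbp7 5.83, Ccl17 4.23, Chad 4.83, Cd3e 3.84, Sit1 3.61, Gpr183 2.63 and Cd2 2.89. The positive values went on with Lif 2.66, Batf3 3.03, Gzmm 2.07, Aff3 1.87, Cd27 2.51, Il7r 2.30, Trac 3.52, Lta 2.52 and Ccl5 2.63. They ended with Klra6 3.79, Cxcr3 2.99, Tcrg-C4 3.60, Tgfbr3 1.52, H2-Aa 3.39, H2-Eb1 2.34, Cd74 4.61, Slfn8 1.22, Jaml 4.02 and Bank1 1.19. Negative values were found for 20 genes: Gzmf -8.75, Gzmg -10.35, Entpd1 -2.19, Rasd2 -3.92, Mt2 -4.33, Gzmd -7.25, Irs2 -2.31, Fgr -2.06 and Gzme -5.60. The remaining negative values were Jun -1.92, Prdm1 -1.75, Vsir -2.03, Ltb4r1 -2.94, Pecam1 -2.05, Bmf -2.33, Aurka -1.16, Ctsg -5.60, Atf5 -1.62, Abcg1 -1.06 and Nrp1 -1.41. Of these calls, those of Cd2, Mt2, Fgr, Il7r, Vsir, Aurka, Abcg1 and Nrp1 were lost in 9 or more alternatives, that of Pecam1 without S6, that of Prdm1 without S6, S12, S13 or S14, that of Bank1 without S5, S6, S12, S13 or S14, that of Gzme without S5, and that of Tcrg-C4 without S3 and S4 or without S5 and S15.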

How the results depend on the processing

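The number of genes called in DKO against Ikzf1 KO, 1700, moved by more than 1.5 times when all 15 libraries shared the spread (734, of which 718 were among the 1700), without S5 and S15 (3861), and over the fits that left out a library, from 794 without S12 to 3569 without S5. It was 1656 to 1756 under other pseudocounts, normalizations, array weights and moderation, 2027 with no filter and 1178 with a filter at 5 RPKM. A similar count did not always mean the same genes: 1364 of the 1742 called with array weights were among the 1700, and 1325 of the 1696 called with plain totals of recovered reads. A term for the S5 and S15 set gave 2348. Sharing the spread among all libraries but S3 and S4 gave 2070, and among Cre only, Ikzf1 KO and DKO libraries 1806. For the difference of differences, 581 genes, the filter at 5 RPKM gave 311, leaving out S3 and S4 gave 947, array weights gave 1395, and leaving out a library gave 342 (without S13) to 749 (without S1). Among the 120 genes described, 3 that were not called changed sign in 8 fits that left out a library: Ctsg ran from -0.45 without S7 to 0.98 without S5, Cd79b from -0.19 without S6 to 0.52 without S5, and Tbx21 from -0.43 without S5 to 0.04 without S6. Ctsg (higher) and Tbx21 (lower) gained a call without S5 and without S5 and S15. Of the values of the other 117 genes, 147 lost the call, 23 gained it and 2489 kept direction and side of the threshold. The difference of differences lost the call in 98 cases and kept it in 1134. Some of these fits tested fewer genes or used fewer samples, and among them the counts of calls went down in some and up in others. The cause of these moves was not tested. No paired analysis was possible because the columns carry no replicate number, so the planned replicate block was not run.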

Other observations

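Further lists showed smaller or mixed changes. Of 17 S100 proteins and annexins, 4 were higher and 1 lower in DKO. S100a4, a calcium-binding protein of motile cells, was at 34.6, 35.7 and 67.1 RPKM in DKO and 6.499, 12.01, 9.29 and 4.87 RPKM in Ikzf1 KO (2.42 ± 0.33, adjusted p = 0.00297), and every DKO library lay above every Ikzf1 KO library. Of 20 genes of the NuRD complex and other Ikaros partners, 4 were lower and none higher, with 8 lower and 3 higher without S5 and none called without S6, S7, S12 or S14. Chd4, the ATPase of NuRD, was at 68.5, 41.5 and 58.3 RPKM against 112, 94.8, 100.9 and 74.9 RPKM (-0.78 ± 0.19, adjusted p = 0.0286), and Gatad2a, another subunit, at 37.4, 31.9 and 34.9 RPKM against 55.6, 42.9, 48.6 and 53.01 RPKM (-0.52 ± 0.11, adjusted p = 0.0176). Both calls were lost when all 15 libraries shared the spread and without S6, S7, S12 or S14. Of 17 genes of the TGF-beta and activin pathway 2 were higher and 2 lower (1 and none without S12): Tgfbr3, a co-receptor that presents TGF-beta, was at 1.99, 1.94 and 1.83 RPKM against 0.208, 0.177, 0.143 and 0.143 RPKM (1.86 ± 0.13, adjusted p = 0.000278). Tnfsf11, which encodes RANKL, was at 40.7, 23.7 and 29.9 RPKM against 8.72, 9.67, 11.3 and 5.13 RPKM (1.81 ± 0.27, adjusted p = 0.00414), a call lost when all 15 libraries shared the spread.

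Il21r, the interleukin 21 receptor, was at 11.2, 16.3 and 17.4 RPKM in DKO against 67.9, 54.1, 62.1 and 56.5 RPKM in Ikzf1 KO (-1.99 ± 0.16, adjusted p = 0.000388). Pecam1, an adhesion molecule of leukocytes and endothelium, was at 9.51, 5.81 and 11.3 RPKM against 54.3, 52.9, 52.02 and 34.6 RPKM (-2.41 ± 0.24, adjusted p = 0.000778), and Clec10a, a lectin of dendritic cells and macrophages, at 0, 0.0677 and 0.156 RPKM against 2.46, 2.34, 2.24 and 2.45 RPKM (-2.33 ± 0.14, adjusted p = 0.00014). Abcg1, which exports cholesterol, was at 7.48, 9.097 and 10.7 RPKM against 21.7, 20, 20.97 and 19.02 RPKM (-1.14 ± 0.12, adjusted p = 0.0012). The groups did not overlap for any of these 4 genes. Of 26 interferon-stimulated genes, 2 were lower and 1 higher, shares below those of all genes in each direction. Without S5, 3 were lower and 3 higher, against 20.1% and 17.3% of all genes in that fit. Of 28 oxidative phosphorylation genes, 2 were higher and none lower, again below the shares of all genes. Without S5, 7 of these 28 were higher, against 17.3% of all genes in that fit.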
